A study of Mus musculus with 23 samples.

Results

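Aminoacyl-tRNA synthetases join each amino acid to its transfer RNA. The genes described here are the 36 mouse synthetase genes found, by gene symbol, in each of the 6 deposited tables of exon and intron reads, out of 18412 genes in the tables. Of these, 20 encode the enzymes of the cytosol and 16, with symbols that end in 2, encode the enzymes of mitochondria. Cytosolic enzymes supply the ribosomes that read nuclear mRNA, and mitochondrial ones supply the organelle's own ribosomes; Gars and Kars serve both places from a single gene. Several cytosolic enzymes sit in a multisynthetase complex held by the scaffold proteins Aimp1, Aimp2 and Eef1e1. Many cytosolic synthetase genes are often described as targets of Atf4, a transcription factor made when the initiation factor eIF2 is phosphorylated, which binds the sequence TGATGNAA in promoters of amino acid genes.

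Polyadenylated RNA of mouse embryonic stem cells was sequenced with a strand-specific method, and exon and intron reads were tabulated separately. Argonaute proteins carry small RNAs to their target mRNAs, and the study removed them permanently or reversibly. In the genetic series the groups were AB2.2 wild type (n = 2), the line B9, which is Blm-/- and Ago1,3,4-/- (n = 2), the line E7, which is Blm-/- and Ago1,2,3,4-/- with CreERT2 and a floxed human Ago2, hAgo2fl (n = 3), and the clones C62 and C86, which are Blm-/- and Ago1,2,3,4-/- with CreERT2 and no Ago2 transgene (n = 2, 1 library of each clone). All other libraries came from clonal TT-FHAgo2 cells, which are Blm-/- and Ago1,2,3,4-/- with CreERT2 and carry an Ago2 that doxycycline switches on. In the time course these cells had 2.5 µg/mL doxycycline for 48 h, and were then left without it for 0, 24, 48 or 96 h (n = 2 each). Rescue cells, grown in 0.1 µg/mL, were first held 96 h off doxycycline (n = 2), after which cells got 0.1 or 2.5 µg/mL for 48 h (n = 2 each). Culture time therefore differed along with doxycycline, and the 2 cannot be told apart. Every mutant line shares the loss of Blm, so differences between them and wild type include it.

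Each deposited column is the mean of a group, from which the normalised reads of each library were worked out. A level is given below in normalised reads, which are comparable only within a series, and is divided by exon length where genes are compared. A change is given on the log2 scale of normalised reads plus 1, with its standard error (SE), and a gene was called where the adjusted p of limma was below 0.05. Library numbers follow depth, library 1 being the deepest of its group. A genetic library held 13516827 to 53691774 exon reads, a time course library 32874536 to 62399060 and a rescue library 24702128 to 53767538. The labels do not say that replicates were separate cultures, so p-values measure the spread between these libraries, which may be technical. Exon reads of Ago1 were at 0 in all mutant libraries and at 3514 and 4693 in wild type. The rows of Ago2, Ago3 and Ago4 held reads in lines null for them and so do not check the labels. Ago2 reads were 11759 to 12167 at 0 h and 10771 to 10817 at 96 h. In the rescue they were 7260 to 7300 without doxycycline, 7672 to 7776 at 0.1 µg/mL and 5284 to 6093 at 2.5 µg/mL. They thus did not follow the dose. The 10 embryonic stem cell markers, such as Pou5f1 and Nanog, summed to 398269 to 423986 normalised reads along the time course. In the rescue they summed to 282496 to 287420 without doxycycline, 300009 to 309349 at 0.1 µg/mL and 320143 to 324408 at 2.5 µg/mL. This sum thus rose in the order of dose without overlap. The 7 fibroblast markers summed to at most 490 and 244 there, with Col3a1 at 0 in all of these libraries. The 3 neuroectoderm markers summed to 2501 to 2766 at 0 h and 3670 to 4157 at 96 h, and in the rescue to 2229 to 2549 without doxycycline and 1437 to 1564 at 2.5 µg/mL. The 5 trophoblast markers summed to 3297 to 3394 (0 h), 4146 to 4202 (24 h), 4683 to 4707 (48 h) and 3380 to 3694 (96 h), so this sum stood highest at 24 and 48 h. In the genetic series the stem cell markers summed to 175013 to 176790 in wild type, 232809 to 237182 in B9 and 179020 to 237651 in the clones. In E7 only 5 of the 10 could be summed. The neuroectoderm markers of that series summed to 2134 to 2583 in wild type and 646 to 789 in B9. They summed to 1180 to 1726 in E7 and 1294 to 2234 in the clones. The 6 primitive endoderm markers had 738 to 829, 724 to 827, 183 to 263 and 299 to 426 there, and the fibroblast markers 340 to 603, 211 to 292, 93 to 99.7 and 101 to 115. The trophoblast markers had 1907 to 2273, 2155 to 2319, 2134 to 3284 and 1603 to 2612, so the groups overlapped. Such a sum can rest mostly on 1 gene. In wild type and B9 the trophoblast marker Tfap2c alone had means of 1829 and 2145, and the neuroectoderm marker Nes 1937 and 414. The part of these markers in the results was not tested.

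The promoter windows of 3 cytosolic genes show what the Atf4 motif looks like in these genes. For contrast, stretches of the mitochondrial enzymes for the same amino acids as 2 of them are also given. The 3 cytosolic genes were chosen because their windows held the motif, and no mitochondrial window found here held it. The contrast between the printed stretches was thus fixed by this choice. Sequences are from RefSeq, build GRCm38.p6, on the strand of the gene and 5′ to 3′, with TGATGNAA or its reverse complement TTNCATCA in capitals. Aars charges alanine, and its stretch is chr8:111033704-111033763 on the plus strand. Gars charges glycine (chr6:55037941-55038000, plus strand) and Tars threonine (chr15:11399659-11399718, minus strand). Aars2 (chr17:45506772-45506831, plus strand) and Tars2 (chr3:95754978-95755037, minus strand) are their mitochondrial counterparts for alanine and threonine.
Aars: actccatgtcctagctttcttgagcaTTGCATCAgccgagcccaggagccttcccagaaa
Gars: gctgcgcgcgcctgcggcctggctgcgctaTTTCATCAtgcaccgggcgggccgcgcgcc
Tars: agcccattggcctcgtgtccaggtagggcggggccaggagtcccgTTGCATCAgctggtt
Aars2: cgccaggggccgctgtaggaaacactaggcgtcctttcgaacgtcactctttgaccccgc
Tars2: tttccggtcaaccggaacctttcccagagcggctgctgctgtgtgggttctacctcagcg
In all 3 cytosolic genes the motif lay on the strand opposite to the gene, 112, 30 and 15 bases before the start that RefSeq gives for Aars, Gars and Tars. GENCODE M21, used for gene positions below, begins Aars 698 bases upstream of that start and Tars2 5229 bases upstream, so the stretches shown for these genes lie inside the gene by that annotation. A window of 250 bases before the start was found for 26 of the 36 genes. It held the motif, on either strand, in 3 of 7 genes of the Atf4-target list, in 0 of 5 other cytosolic genes and in 0 of 14 mitochondrial genes, against 3.91% of all 27025 genes in the table. A match is a description of these letters and not a binding site.

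In cells after 48 h at 2.5 µg/mL doxycycline, the 0 h group, the cytosolic synthetase mRNAs were, in their median, the more abundant per kilobase of exon. The median cytosolic gene had 3719 normalised reads per kb, from 1290 for Wars, the tryptophan enzyme, to 10350 for Aars. Exons of Aars overlap Exosc6 on the same strand, and the part of Exosc6 in the Aars reads was not tested. The median mitochondrial gene had 466, from 152 for Wars2, also for tryptophan, to 5369 for Lars2, the mitochondrial leucine enzyme. Lars2 stood far above the other 15 mitochondrial genes, of which Yars2, for tyrosine, was the highest at 1749. The 2 classes thus overlapped little in level: without Lars2, the highest mitochondrial gene lay within the lower part of the cytosolic range.

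After doxycycline was removed, most cytosolic synthetase mRNAs fell within 24 h and nearly all were lower by 48 h. At 24 h 13 of 20 cytosolic genes were lower and 1, Dars, was higher than at 0 h, at a median of -0.25, whereas 24.1% of all 13652 genes tested were lower, 26.5% higher and 50.7% called in either direction. At 48 and 96 h 19 of 20 were lower and 0 higher, with medians of -0.41 and -0.40, beside 31.2% and 32.5% of all genes lower, 32.1% and 32.4% higher and 63.3% and 65% called in all. The median over all genes was 0.01 at 24 and 48 h and -0.01 at 96 h. The gene not called was Iars, for isoleucine, at 48 h and Qars, for glutamine, at 96 h. All 3 comparisons share the 0 h libraries, and lower RNA per cell cannot be told apart from fewer cells that express a gene.

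**Figure D1:**
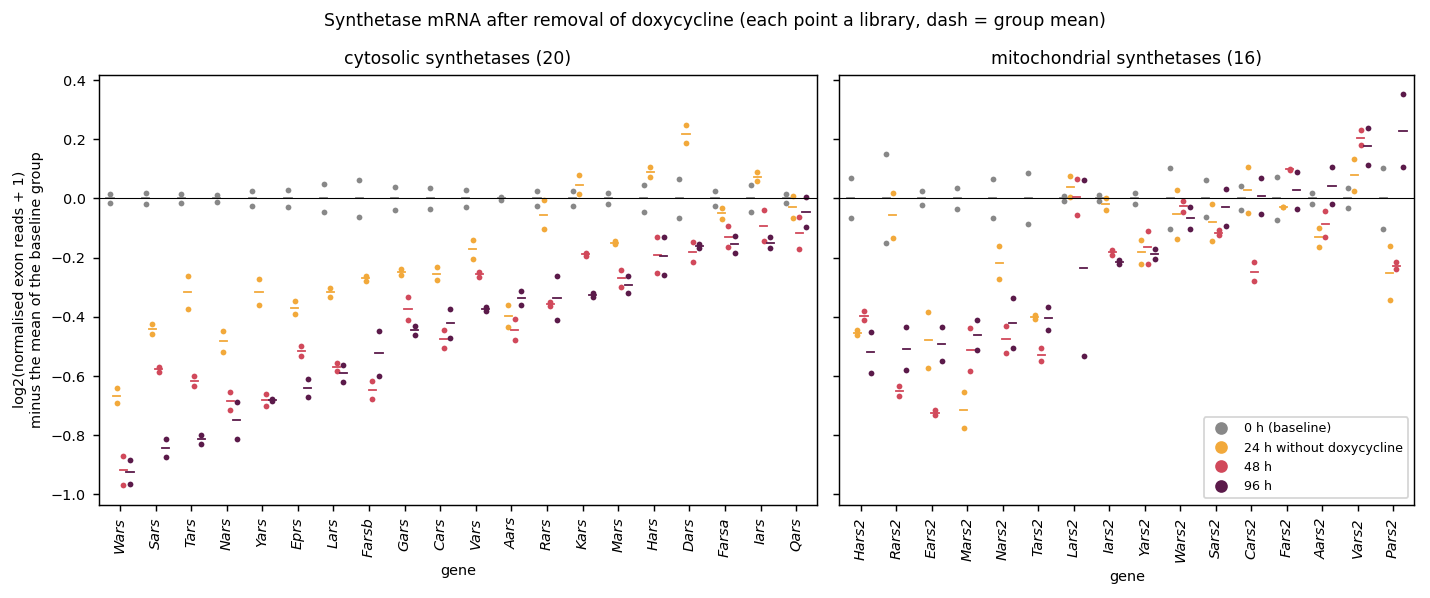
Log2 normalised exon reads of each synthetase gene in the time course, minus the mean of the 0 h group; each point is a library, each dash a group mean, and genes are ordered by their change at 96 h. All 20 cytosolic genes have a mean below 0 at 96 h, down to -0.92 for Wars, while the mitochondrial genes range from -0.52 to 0.23.

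Wars, which charges tryptophan (chromosome 12, 108860030 to 108894174, minus strand, GRCm38), fell the most of the cytosolic genes at each time. Its libraries went from 3759 and 3677 normalised reads (0 h) to 2382 and 2300 (24 h), 1900 and 2035 (48 h) and 2015 and 1905 (96 h). The groups at 24 h and later did not overlap the 0 h group, and those at 48 and 96 h overlapped each other. The change was -0.67 (SE 0.06, limma adjusted p 2.90e-09) at 24 h and -0.92 (SE 0.06, limma adjusted p 2.64e-12) at 96 h.

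Sars, the serine enzyme (chromosome 3, 108424865 to 108445209, minus strand), fell up to 96 h. It went from 13818 and 14166 reads (0 h) to 10424 and 10175 (24 h), 9427 and 9322 (48 h) and 7959 and 7638 (96 h). Each group lay below the one before it without overlap, and the change was -0.58 (SE 0.04, limma adjusted p 3.59e-11) at 48 h and -0.84 (SE 0.04) at 96 h. Tars, the threonine enzyme, went from 13416 and 13693 reads (0 h) to 11296 and 10472 (24 h), 8946 and 8737 (48 h) and 7628 and 7789 (96 h). Its groups likewise did not overlap, and its change reached -0.81 (SE 0.04, limma adjusted p 1.44e-13).

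Nars, for asparagine, fell from 24412 and 24777 reads (0 h) to 18048 and 17185 (24 h), 15614 and 14990 (48 h) and 14000 and 15278 (96 h). All later libraries lay below those at 0 h, and the change at 96 h was -0.75 (SE 0.04, limma adjusted p 7.34e-13). Yars, for tyrosine, fell from 10041 and 9708 reads to 8171 and 7687, then 6243 and 6079, then 6176 and 6141. It reached its lower level at 48 h (-0.68, SE 0.05, limma adjusted p 7.44e-12) and was not called between 48 and 96 h (limma adjusted p 0.996). Eprs, a fused enzyme for glutamate and proline, changed by -0.64 (SE 0.04) at 96 h. Aars, the most abundant per kb, had its largest change already at 48 h, at -0.44 (SE 0.04), and was 0.11 (SE 0.04) higher at 96 h than at 48 h, the 1 cytosolic rise of that step. That rise had a limma adjusted p of 0.0438 and did not pass without library 1 or library 2 at 48 h, or library 1 at 96 h (adjusted p 0.054, 0.34 and 0.175).

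Dars, the aspartate enzyme, was the exception at 24 h. It went from 4935 and 4496 reads (0 h) to 5590 and 5362 (24 h), 4257 and 4055 (48 h) and 4238 and 4192 (96 h). The 24 h libraries lay above, and those at 48 and 96 h below, both 0 h libraries. Its changes against 0 h were 0.22 (SE 0.05, limma adjusted p 0.00143) at 24 h, -0.18 (SE 0.05, limma adjusted p 0.00447) at 48 h and -0.16 (SE 0.05, limma adjusted p 0.01) at 96 h. Without library 2 at 0 h the rise at 24 h was 0.15 and missed the threshold (adjusted p 0.0539).

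Of the 12 cytosolic genes on a list of Atf4 targets, 11, 11 and 12 were lower at 24, 48 and 96 h, with medians of -0.32, -0.54 and -0.62. Of the other 8, 2, 8 and 7 were lower, with medians of -0.04, -0.19 and -0.26; the largest among them was Farsb, the beta subunit of the phenylalanine enzyme, at -0.65 (SE 0.06) at 48 h. The difference between the lists was not tested. The 8 enzymes of the multisynthetase complex, which include genes of both lists, had 3, 7 and 7 lower at medians of -0.04, -0.23 and -0.31. Of the 3 scaffolds of that complex, 0, 3 and 2 were lower, the most being Eef1e1 at -0.77 (SE 0.06, limma adjusted p 1.91e-10) at 96 h.

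Among 24 other genes of the Atf4 pathway, 23, 19 and 21 were lower and 1 was higher at each of 24, 48 and 96 h, where 24.1%, 31.2% and 32.5% of all genes were lower. Slc7a11, a cystine transporter, Chac1, which degrades glutathione, and Aldh1l2, a mitochondrial folate enzyme, fell the most at 96 h, by 3.06, 2.25 and 1.75 on the log2 scale. The higher gene was Ddit4, a stress-induced regulator of growth signalling, at 24 and 48 h (0.61 and 0.76) and Atf5, a relative of Atf4, at 96 h (0.28). The mRNA of Atf4 itself went from 25357 and 26234 reads (0 h) to 15537 and 14129 (24 h) and 16220 and 16865 (96 h), so the later groups lay below the first. The exons of Ddit3, one of this list, overlap those of Mars on the other strand, and the sources used here do not say whether counting used strand.

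Some mitochondrial synthetase mRNAs fell too. At 24, 48 and 96 h 6, 9 and 9 of 16 were lower and 0, 1 and 1 higher, with medians of -0.11, -0.20 and -0.20. These counts stand beside 24.1%, 31.2% and 32.5% of all genes lower. For 15 pairs of a cytosolic and a mitochondrial gene for the same amino acid, with Farsa and Farsb each set against Fars2, the cytosolic change was the lower in 10, 11 and 11. The widest gaps at 96 h were for tryptophan (Wars -0.92, Wars2 -0.07) and serine (Sars -0.84, Sars2 -0.03). For histidine the order was the opposite, with Hars at -0.19 and Hars2 at -0.52; the 2 genes overlap on opposite strands.

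Mars2, the mitochondrial methionine enzyme (chromosome 1, 55237177 to 55248470, plus strand), had its lowest level at 24 h. It went from 1484 and 1415 reads (0 h) to 921 and 846 (24 h), 966 and 1070 (48 h) and 1090 and 1016 (96 h). All later libraries lay below those at 0 h, with a change of -0.71 (SE 0.08, limma adjusted p 1.46e-07) at 24 h and -0.46 (SE 0.08, limma adjusted p 2.86e-05) at 96 h. Ears2, for glutamate (chromosome 7, 122037213 to 122067263, minus strand), went from 1299 and 1342 reads (0 h) to 1012 and 888 (24 h), 804 and 794 (48 h) and 902 and 976 (96 h). Its change was largest at 48 h, at -0.72 (SE 0.08, limma adjusted p 7.71e-08), with no overlap between 0 h and any later group.

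Hars2, for histidine, went from 1280 and 1406 reads (0 h) to 973 and 986 (24 h), 1008 and 1030 (48 h) and 892 and 980 (96 h), a change of -0.52 (SE 0.08, limma adjusted p 4.76e-06) at 96 h. It was thus down from 24 h on, with every later library below both at 0 h. Rars2, the arginine enzyme, stayed within its 0 h range at 24 h, with 762 and 618 reads at the start, then 695 and 626. It then held 442 and 432 (48 h) and 507 and 459 (96 h), all below 0 h (-0.65, SE 0.11, limma adjusted p 2.36e-05 at 48 h). Tars2, for threonine, went from 2947 and 3324 reads (0 h) to 2384 and 2360 (24 h), 2137 and 2204 (48 h) and 2427 and 2300 (96 h). It lay below 0 h at every time, at -0.53 (SE 0.06, limma adjusted p 9.87e-08) at 48 h. Nars2, for asparagine, was at -0.48 (SE 0.10) and -0.42 (SE 0.10) at 48 and 96 h.

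Vars2, the mitochondrial valine enzyme, moved against its class. It went from 1812 and 1899 reads (0 h) to 1886 and 2034 (24 h), 2176 and 2103 (48 h) and 2005 and 2190 (96 h), with all libraries at 48 and 96 h above both at 0 h. The rise was 0.21 (SE 0.07, limma adjusted p 0.00843) at 48 h and 0.18 (SE 0.07, limma adjusted p 0.0215) at 96 h. It missed the threshold at 48 h without library 1 at 0 h or library 1 at 48 h (adjusted p 0.0748 and 0.0776), and at 96 h without library 1 at 0 h or library 2 at 96 h (adjusted p 0.138 and 0.206). Lars2, called lower at 96 h (-0.23, SE 0.10, limma adjusted p 0.0392), had 20946 and 20727 reads at 0 h against 21742 and 14420 at 96 h, so 1 library was low and the groups overlapped.

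Most of the fall of the cytosolic class came before 48 h. Between 24 and 48 h 16 of 20 cytosolic genes were lower and 0 higher (18.8% of all genes lower, 39% called), led by Dars at -0.40 (SE 0.05), Farsb at -0.38 and Yars at -0.36. Between 48 and 96 h 5 were lower and 1 higher (16.3% of all genes lower, 20.1% higher, 36.4% called), led by Sars at -0.27 (SE 0.04) and Tars at -0.20 (SE 0.04). Of the 6 called in that step, 2 passed without library 1 or without library 2 at 48 h. Of 16 mitochondrial genes, 4 were lower in the first of these steps, led by Rars2 at -0.59 (SE 0.11), and 3 were higher in the second, led by Pars2, the proline enzyme, at 0.46 (SE 0.10). Without library 2 at 24 h or library 2 at 48 h, 2 genes were lower in the first step, and without either library at 48 h 1 gene was higher in the second.

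When doxycycline was given back, the cytosolic synthetase mRNAs rose, and more so at the higher dose. At 0.1 µg/mL 15 of 20 were higher and 0 lower than without doxycycline, at a median of 0.28, beside 22% of all 13176 genes higher, 22.1% lower and 44.1% called. At 2.5 µg/mL 16 were higher and 0 lower, at a median of 0.42, beside 31.8% of all genes higher, 32% lower and 63.8% called. All 20 had a positive change at both doses, and the median over all genes was -0.01 and 0.00. Against 0.1 µg/mL, 2.5 µg/mL gave 11 higher and 1 lower, the latter being Farsa, the alpha subunit of the phenylalanine enzyme, with 20% of all genes higher and 41% called. Farsa stood at 0.18 (SE 0.05) at 0.1 µg/mL and 0.02 (SE 0.05) at 2.5 µg/mL; its difference between doses, -0.16, missed the threshold without library 1 at 0.1 µg/mL or library 2 at 2.5 µg/mL (adjusted p 0.129 and 0.0918).

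**Figure D2:**
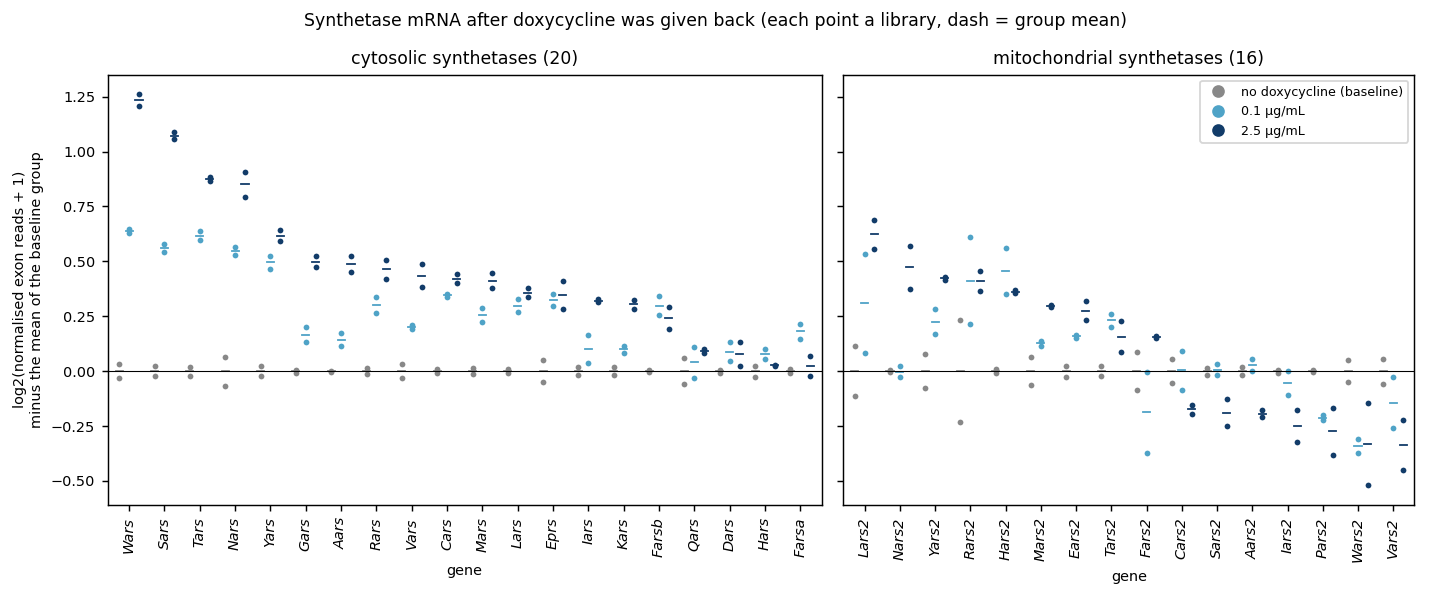
Log2 normalised exon reads of each synthetase gene in the rescue, minus the mean of the group without doxycycline; each point is a library, each dash a group mean, and genes are ordered by their change at 2.5 µg/mL. The cytosolic genes spread from 0.02 to 1.24 at 2.5 µg/mL, and the mitochondrial genes from -0.34 to 0.62.

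Wars again led. It went from 1316 and 1373 normalised reads without doxycycline to 2079 and 2104 at the lower and 3225 and 3110 at the higher dose. The 3 groups were in the order of dose with no overlap, at 0.64 (SE 0.06, limma adjusted p 5.65e-09) for 0.1 and 1.24 (SE 0.06, limma adjusted p 1.90e-15) for 2.5 µg/mL, a 2.35-fold rise. Sars had 5318 and 5157 reads without doxycycline, 7625 and 7828 at 0.1 and 11130 and 10904 at 2.5 µg/mL. Its groups also kept the order of dose, with changes of 0.56 (SE 0.05) and 1.07 (SE 0.05, limma adjusted p 5.59e-17). Tars went from 5638 and 5800 reads to 8647 and 8890 and then 10418 and 10543, at 0.62 (SE 0.05) and 0.87 (SE 0.05, limma adjusted p 3.18e-15), again without overlap.

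Nars changed by 0.55 (SE 0.05) and 0.85 (SE 0.05), and Yars by 0.50 (SE 0.05) and 0.62 (SE 0.05). Eprs and Lars, the leucine enzyme, had most of their rise at the lower dose: Eprs stood at 0.32 and 0.35 and Lars at 0.30 and 0.36, each with an SE of 0.05. Aars and Gars had most of it at the higher dose, at 0.14 and 0.49 for Aars and 0.17 and 0.50 for Gars, each with an SE of 0.04. Dars, Hars, for histidine, and Qars passed the test at neither dose, at 0.09, 0.08 and 0.04 for 0.1 µg/mL and 0.08, 0.03 and 0.09 for 2.5 µg/mL.

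On the Atf4-target list 11 and 12 of 12 genes were higher at 0.1 and 2.5 µg/mL, at medians of 0.33 and 0.49. Of the other 8 cytosolic genes, 4 were higher at each dose, at medians of 0.14 and 0.17. The 8 enzymes of the multisynthetase complex had 4 and 6 higher, and its 3 scaffolds 2 and 2, with Eef1e1 at 1.01 (SE 0.06, limma adjusted p 5.07e-14) at 2.5 µg/mL. Of the 24 other Atf4 pathway genes, 20 were higher and 1 lower (Atf5, -0.39) at 0.1 µg/mL and 23 higher and 0 lower at 2.5 µg/mL, led by Chac1 at 2.25 and 3.25. Atf4 mRNA itself went from 10708 and 10725 reads without doxycycline to 15099 and 14465 at the lower and 18435 and 18373 at the higher dose, with no overlap between groups.

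Mitochondrial synthetase mRNAs were called in both directions. At 0.1 µg/mL 5 of 16 were higher and 1 lower, at a median of 0.02, and at 2.5 µg/mL 8 were higher and 5 lower, at a median of 0.16. Beside these, 22% of all genes were higher and 22.1% lower at the lower dose, and 31.8% were higher and 32% lower at the higher dose. These counts leaned on single libraries: at 0.1 µg/mL 2 genes were called without library 2 of the group without doxycycline or library 2 at 0.1 µg/mL, and at 2.5 µg/mL 7 and 8 were called without library 1 and library 2 of the group without doxycycline. In the 15 pairs for the same amino acid, the cytosolic change was the higher in 12 at each dose. Between the doses 4 mitochondrial genes were higher and 2 lower at 2.5 µg/mL, led by Nars2 at 0.48 (SE 0.12). The widest gap within a pair at 2.5 µg/mL was again for tryptophan, with Wars at 1.24 and Wars2 at -0.33.

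Lars2 had the largest rise of the class. It went from 13995 and 11957 reads without doxycycline to 13715 and 18724 at the lower and 20841 and 19052 at the higher dose, so that only the higher dose stood clear of the control. Its change was 0.62 (SE 0.08, limma adjusted p 2.62e-07) at 2.5 µg/mL. At 0.1 µg/mL it was 0.31 (SE 0.08), and missed the threshold without library 2 of the group without doxycycline or library 2 at 0.1 µg/mL (adjusted p 0.171 and 0.36). Nars2 went from 401 and 399 reads without doxycycline to 406 and 393 at the lower and 519 and 595 at the higher dose, and so rose at the higher dose alone (0.48, SE 0.12, limma adjusted p 0.00125). Yars2, with 1842 and 1651, 2121 and 1959, and 2347 and 2329 reads in the 3 groups, rose in the order of dose, by 0.42 (SE 0.07, limma adjusted p 4.76e-06) at 2.5 µg/mL.

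Hars2 went from 687 and 678 reads without doxycycline to 870 and 1006 at the lower and 873 and 881 at the higher dose, so the libraries at the lower dose spanned those at the higher one. Its changes were 0.45 (SE 0.09, limma adjusted p 0.000263) and 0.36 (SE 0.09, limma adjusted p 0.00145). Rars2, with 323 and 447, 441 and 581, and 489 and 522 reads, overlapped its control at 0.1 µg/mL and lay above it at 2.5 µg/mL. Its change of 0.41 (SE 0.14) at each dose missed the threshold without library 1 of the group without doxycycline (adjusted p 0.441 at 0.1 and 0.378 at 2.5 µg/mL), without library 2 at 0.1 µg/mL (adjusted p 0.344) or without library 2 at 2.5 µg/mL (adjusted p 0.0842).

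The 5 mitochondrial genes lower at 2.5 µg/mL were Vars2 (-0.34, SE 0.09), Wars2 (-0.33, SE 0.13), Pars2 (-0.27, SE 0.11), Iars2, for isoleucine (-0.25, SE 0.06), and Aars2 (-0.19, SE 0.07). Vars2 had 1337 and 1446 reads without doxycycline and 1190 and 1017 at 2.5 µg/mL, with no overlap. Iars2 had 2972 and 3002 reads without doxycycline and 2644 and 2390 at 2.5 µg/mL. Wars2, which was also lower at 0.1 µg/mL (-0.34, SE 0.13), went from 538 and 578 reads without doxycycline to 430 and 450 at the lower and 504 and 389 at the higher dose. Its call at 0.1 µg/mL missed the threshold without any 1 of the 4 libraries (adjusted p 0.0601 to 0.191), and at 2.5 µg/mL without library 1 or 2 of the control or library 2 of the dose (adjusted p 0.0533, 0.158 and 0.376). Pars2 and Aars2 missed it at 2.5 µg/mL without library 1 or 2 of the control or library 1 of the dose (adjusted p 0.126, 0.112 and 0.278 for Pars2, and 0.0648, 0.12 and 0.0684 for Aars2).

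The time course and the rescue used different libraries of the same cells, so loss and return of each gene can be set side by side. Of the 19 cytosolic genes lower at 96 h, 16 were higher at 2.5 µg/mL, the others being Dars, Farsa and Hars. Of the 9 mitochondrial genes lower at 96 h, 8 were higher at 2.5 µg/mL, and the 9th, Iars2, was lower in both series. Over all 13149 genes tested in both, 3198 of the 4366 lower at 96 h (73.2%) were higher at 2.5 µg/mL, so most genes that fell in the time course were higher again in the rescue. Vars2 was the 1 member higher at 96 h and lower at 2.5 µg/mL. Across genes, which are not independent, the 2 changes had a Pearson r of -0.87 for the 20 cytosolic and -0.74 for the 16 mitochondrial members, beside -0.83 over all genes. The cells without doxycycline in the rescue had been grown at 0.1 µg/mL beforehand and those of the time course at 2.5 µg/mL for 48 h, so the 2 series do not start from the same state.

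**Figure D3:**
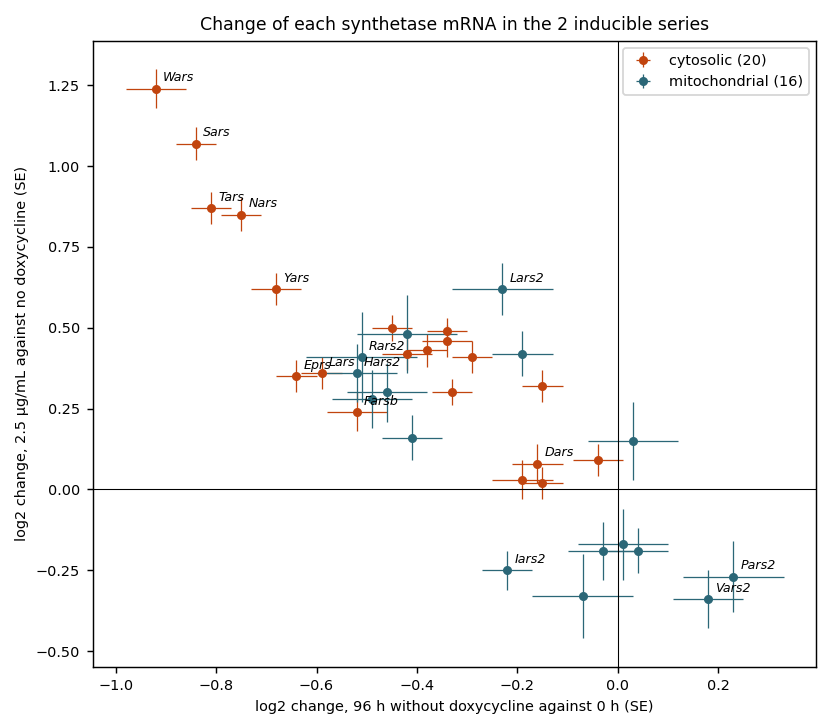
Log2 change of each synthetase gene at 96 h without doxycycline (horizontal axis) and after 48 h at 2.5 µg/mL (vertical axis), with bars of 1 SE; orange marks cytosolic and blue mitochondrial genes. Wars, Sars, Tars, Nars and Yars are at the upper left, Iars2 is lower in both series, and Vars2 lies at the lower right.

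In the genetic series the libraries of a group differed far more, and few members passed the test. The clones without Argonaute, set against E7, gave 0 of 20 cytosolic and 0 of 15 mitochondrial genes called by limma, with 1.51% of all 13142 genes called; at an unadjusted p below 0.05, 5 members of 35 passed, Eprs, Nars, Yars, Cars2 and Iars2, where 20.2% of all genes did. Lars2 was not tested here. The median SE of a change was 0.336 to 0.368, where it was 0.0797 with doxycycline removed and 0.091 with it given back. On the Atf4-target list 9 of 12 genes were lower in sign, at a median of -0.33, against 2 of the other 8 cytosolic genes, at a median of 0.09. None of these 20 changes was called with all libraries in. Some lay within 1 SE of 0, such as Cars (-0.20, SE 0.25), Dars (-0.08, SE 0.21) and Hars (-0.05, SE 0.27). The difference between the lists was not tested. Without library 1 of the clones 1 cytosolic gene was called.

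**Figure D4:**
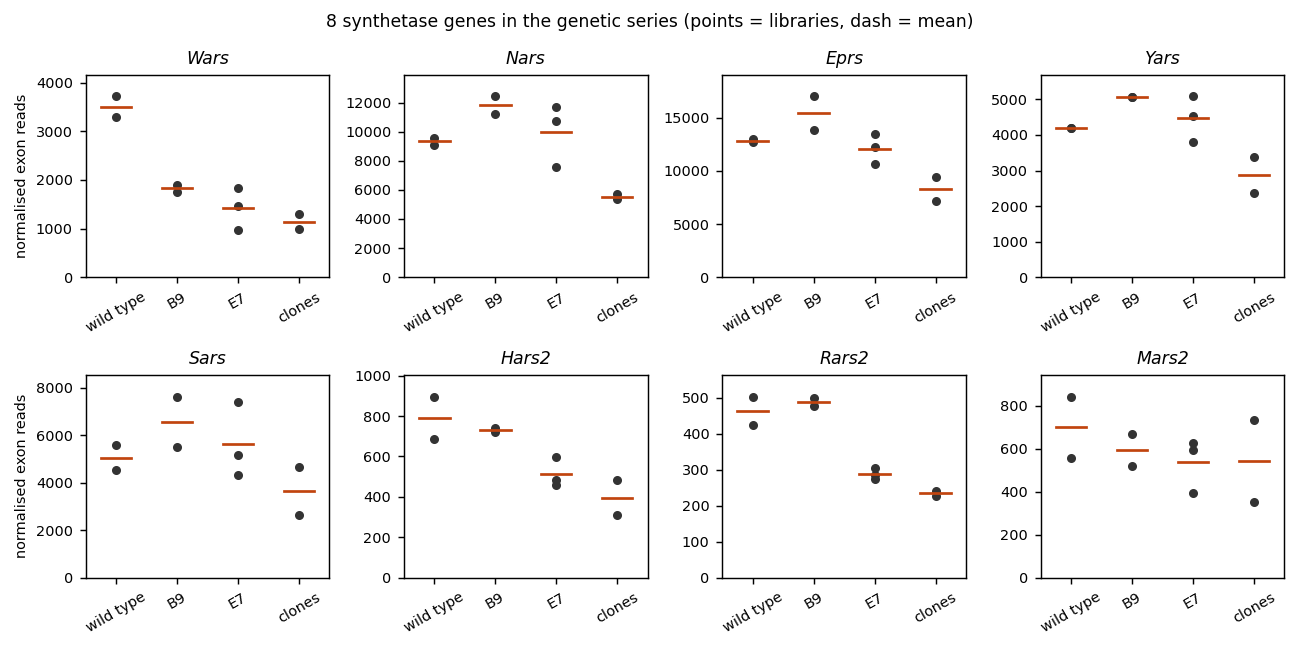
Normalised exon reads of 8 synthetase genes in wild type, B9, E7 and the clones without Argonaute; points are libraries and dashes group means, on axes that start at 0. Wars is high in wild type alone, and the clone libraries of Nars, Eprs and Yars lie below all libraries of E7 and of B9.

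Wars had its highest reads in wild type. It had 3719 and 3295 reads in wild type, 1902 and 1754 in B9, 1831, 1457 and 980 in E7, and 997 and 1291 in the clones. Both wild-type libraries lay above all others, while E7 and the clones overlapped. The clones differed from wild type by -1.62 (SE 0.30, limma adjusted p 0.00549) and E7 by -1.34 (SE 0.27, limma adjusted p 0.0232), and the change in B9, -0.94 (SE 0.30), was not called. The call for E7 was lost without either wild-type library (adjusted p 0.16 and 0.156) and without library 2 or library 3 of E7 (adjusted p 0.0767 and 0.0597).

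Against wild type, 1 of 20 cytosolic and 2 of 15 mitochondrial genes were lower in the clones and 0 were higher, with 7.72% of all genes lower and 18.6% called. The mitochondrial ones were Hars2, with 685 and 897 reads in wild type and 482 and 311 in the clones (-1.02, SE 0.31, limma adjusted p 0.043), and Rars2, with 503 and 424 against 241 and 227 (-0.98, SE 0.29, limma adjusted p 0.0404). For both genes the clones lay below wild type without overlap. E7, at 305, 273 and 286 reads, lay between them for Rars2, and at 459, 595 and 484 reads overlapped the clones for Hars2. Neither passed without library 1 or 2 of wild type or library 2 of the clones (adjusted p 0.0893, 0.246 and 0.17 for Hars2, and 0.193, 0.126 and 0.0881 for Rars2). The cytosolic count was 4 without library 1 and 2 without library 2 of the clones, and the mitochondrial count was 4 without library 1.

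Against B9, which keeps Ago2, 3 cytosolic genes were lower in the clones, with 5.41% of all genes lower and 13% called. Nars had 12431 and 11234 reads in B9 and 5370 and 5709 in the clones (-1.09, SE 0.25, limma adjusted p 0.0183). Eprs had 17032 and 13852 against 9466 and 7175 (-0.90, SE 0.24, limma adjusted p 0.0327), and Yars 5062 and 5073 against 2364 and 3379 (-0.84, SE 0.24, limma adjusted p 0.0451). None of these groups overlapped, and all 3 genes are on the Atf4-target list. Of that list 9 of 12 were lower in sign, but only these 3 were called. Of the mitochondrial genes Rars2 was lower, with 499 and 477 reads in B9 (-1.06, SE 0.29, limma adjusted p 0.0377). None of the 4 calls held without library 1 or without library 2 of B9 (adjusted p 0.0709 to 0.197), Eprs and Rars2 were also lost without library 2 of the clones (adjusted p 0.102 and 0.0888), and Yars without library 1 of the clones (adjusted p 0.0824).

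E7 against wild type gave Wars alone among all 35 genes tested, with 4.56% of genes called, and B9 against wild type gave 0 of 35, with 0.0685% called. At an unadjusted p below 0.05 Wars alone passed in B9 (-0.94, unadjusted limma p 0.00957), where 7.34% of all genes did. Of the 24 Atf4 pathway genes, 7 were lower in the clones than in wild type and 9 than in B9, with 0 higher. Beside these, 7.72% and 5.41% of all genes were lower. Slc7a11 (-3.98) led against wild type, but near the floor, with means of 1.93 reads in the clones and 34.3 in wild type. Chac1 (-3.27) led against B9. Against E7 Chac1 was lower (-2.36, SE 0.48, limma adjusted p 0.0398), where 1.51% of all genes were called. Atf4 was not called there (-1.03, SE 0.23, limma adjusted p 0.0523). Lars2 varied within groups more than between them: it had 37625 and 15688 reads in wild type, 36872 and 16055 in B9 and 32981 and 16068 in the clones. In E7 the authors' mean was 19693, which did not resolve into single libraries. The source of this spread was not tested.

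Introns hold RNA that is not yet spliced, and intron reads of most cytosolic genes moved with the exon reads. At 24, 48 and 96 h 13, 14 and 14 of 20 cytosolic genes had lower intron reads and 1, Dars, higher, where 18.3%, 21.2% and 21.8% of all genes tested on introns were lower and 37.2%, 43.4% and 44.6% called. At 0.1 and 2.5 µg/mL 8 and 17 had higher intron reads and 0 and 1 lower, where 5.33% and 24.3% of all genes were higher and 10.3% and 46.4% called. Sars introns had 871 and 869 reads at 0 h and 518 and 469 at 96 h (-0.82, SE 0.10), and 231 and 250 without doxycycline against 690 and 746 at 2.5 µg/mL (1.57, SE 0.12, limma adjusted p 3.99e-11). Neither pair of groups overlapped. Wars introns changed by -1.20 (SE 0.15) at 96 h and by 0.85 (SE 0.18) at 2.5 µg/mL.

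**Figure D5:**
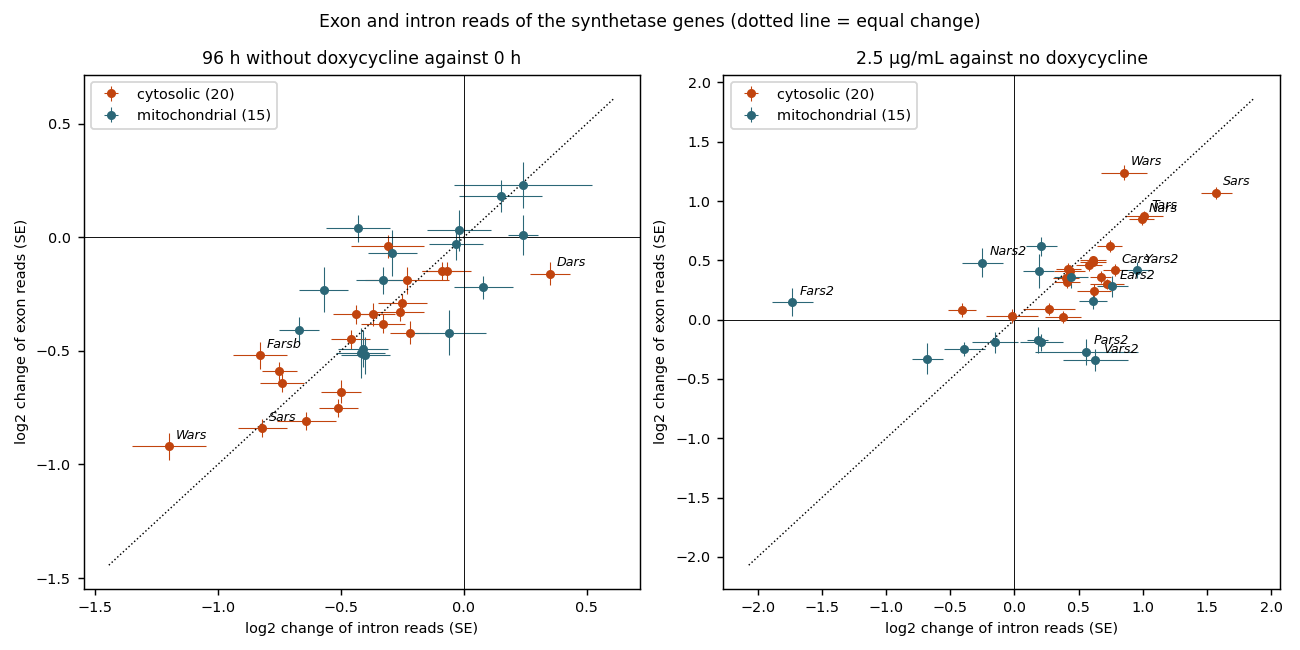
Log2 change of intron reads (horizontal axis) and exon reads (vertical axis) of each synthetase gene, with bars of 1 SE, at 96 h against 0 h on the left and at 2.5 µg/mL against no doxycycline on the right; the dotted line marks equal change. Most cytosolic genes (orange) are near the line, Dars lies to the right of it at 96 h, and Fars2 (blue) lies far to the left at 2.5 µg/mL.

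Dars went apart: its introns went from 765 and 792 reads (0 h) to 1053 and 951 (24 h), 907 and 900 (48 h) and 961 and 1025 (96 h), all later libraries being above 0 h. At 96 h its introns were at 0.35 (SE 0.08, limma adjusted p 0.000764) while its exons were at -0.16, and at 2.5 µg/mL its introns were lower, at -0.41 (SE 0.11, limma adjusted p 0.00273). Fars2, the mitochondrial phenylalanine enzyme, showed the largest intron change of all members. Its introns went from 368 and 400 reads without doxycycline to 374 and 380 at the lower and 136 and 97.2 at the higher dose (-1.73, SE 0.16, limma adjusted p 1.96e-09), with the highest dose below all others, while its exons were at 0.15 (SE 0.12). Lyrm4 and Nrn1 overlap exons of Fars2 on the other strand, and their part in these reads was not tested. In mitochondrial genes as a class 7, 6 and 8 of 15 had lower and 2, 2 and 1 higher intron reads at 24, 48 and 96 h. Beside these, 18.3%, 21.2% and 21.8% of all genes tested on introns were lower. In either direction 37.2%, 43.4% and 44.6% were called. The lower mitochondrial genes were led at 96 h by Tars2 at -0.67 (SE 0.08). Mars2 was not tested on introns.

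The change of exon reads beyond that of intron reads was called for few members. It was higher for Farsb at 24 h (0.61, SE 0.10, limma adjusted p 0.0383, 4.12% of genes called), lower for Cars2, the mitochondrial cysteine enzyme, at 48 h (-0.76, SE 0.12, limma adjusted p 0.0224, 9.33% called), and lower for Dars at 96 h (-0.52, SE 0.10, limma adjusted p 0.0334, 9.08% called). At 2.5 µg/mL it was higher for Fars2 (1.92, SE 0.25, limma adjusted p 0.0254) and Nars2 (0.77, SE 0.13, limma adjusted p 0.0318), with 11.3% of genes called. Between doses Fars2 alone passed (2.07, SE 0.25, limma adjusted p 0.0421, 2.44% called). Which exon library goes with which intron library was taken from the correlation of their deviations, only 0.03 to 0.18 here, so that match is weak.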

How the data were processed

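Per the submitters' processing notes, reads were aligned with TopHat2 2.0.12 to mm10 and normalised with DESeq; the DESeq version, counter and annotation: not given in the sources used here. The authors deposited 6 tables of signal, namely normalised reads in exons or introns of each gene, as means over the libraries of a group. Because such a mean is built from whole reads divided by a factor for each library, the reads of single libraries could be solved for: 404962 of 405064 values (99.975%) had a single solution, at a relative misfit of at most 5.34e-15. The 102 values without one were all in E7 and include Lars2. The columns carry no replicate numbers, so a library is known by its depth only, and which of the clones C62 and C86 it came from is not known.

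Gene changes were tested with limma 3.58.1 in R 4.3.3 on log2 of normalised reads plus 1, over genes with a mean of at least 10, in a single fit for each table, with trended variance and Benjamini-Hochberg adjustment over all genes of a comparison (13 comparisons, call below 0.05). The deposited values are not counts, and no count model was run on the recovered reads. The method was tested on data simulated with known changes, at the spread of the most abundant genes. It called 88.1% of 1.5-fold changes for 24 h against 0 h and 86.6% for 0.1 µg/mL against no doxycycline. For the clones against E7 it called only 10.4% of 1.5-fold and 40.3% of 2-fold changes. Of the calls in these 3 comparisons, 7.04%, 4.64% and 2.97% were false. Exon and intron libraries were paired within a group by the correlation of their deviations. Alternatives were a pseudocount of 10, no filter, scaling by medians of ratios, a fit with only the 2 groups compared, and leaving out each library.

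Members and gene lists were chosen with earlier results of these data known. Named in each comparison were up to 6 cytosolic and 6 mitochondrial called genes with the largest changes, those that moved against their class, and up to 3 per direction of other lists; other genes named, such as Lars2 at 96 h, were chosen after their values were seen. Exons of 10 members overlap another protein-coding gene, 9 of them only on the other strand, and whether counting used strand is not stated. The remaining member is Aars, which overlaps Exosc6 on the same strand.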

Additional observations from a re-analysis of the deposited data

Results flagged for a closer look

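Dars, the cytosolic aspartate enzyme, moved in opposite directions at successive times: it was higher at 24 h than at 0 h (0.22, SE 0.05) and then lower at 48 h than at 24 h (-0.40, SE 0.05, limma adjusted p 2.63e-06). Both 24 h libraries lay above all other libraries of the time course.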

How the results depend on the processing

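No result changed direction under any alternative. With a pseudocount of 10 or scaling by medians of ratios, all 107 named changes and all 26 counts of synthetase genes stayed on their side of the threshold or within 1.5 times. Without the filter on low values, 9 named changes no longer passed, and the counts became 0 mitochondrial genes for the clones against wild type and 1 cytosolic gene for the clones against B9. With only the 2 groups compared in the fit, 7 no longer passed, and the counts became 0 mitochondrial for the clones against wild type, and 0 cytosolic and 0 mitochondrial for the clones against B9. Leaving out 1 library at a time, 89 of the changes so tested no longer passed and 340 did. The counts of called genes then ranged as follows. For cytosolic genes, the range was 2 to 7 for 96 h against 48 h, 0 to 1 for the clones against E7, 1 to 4 for the clones against wild type, 0 to 2 for the clones against B9, and 0 to 1 for E7 against wild type. For mitochondrial genes, it was 2 to 4 for 48 h against 24 h, 1 to 3 for 96 h against 48 h, 2 to 5 for 0.1 µg/mL and 7 to 11 for 2.5 µg/mL against no doxycycline, 0 to 4 for the clones against wild type and 0 to 2 for the clones against B9. The cause was not tested. The other counts stayed within 1.5 times; the cytosolic counts at 24, 48 and 96 h ranged over 12 to 14, 15 to 20 and 16 to 19, and those at 0.1 and 2.5 µg/mL over 13 to 15 and 16 to 16. No paired analysis was possible because the deposited columns carry no replicate numbers. Count models were not run, although whole reads of most libraries could be recovered from the deposited group means. Genes with few reads, such as Rars2 and Wars2, have the least precise changes.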

Other observations

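Counts for other genes of the translation machinery stand beside those of all genes, of which 24.1%, 31.2% and 32.5% were lower and 26.5%, 32.1% and 32.4% higher at 24, 48 and 96 h, and 22% and 31.8% higher and 22.1% and 32% lower at 0.1 and 2.5 µg/mL. Of 17 cytosolic translation factors, 5, 14 and 13 were lower and 2, 2 and 0 higher at 24, 48 and 96 h, and 12 and 14 were higher and 0 and 1 lower at 0.1 and 2.5 µg/mL. Etf1, the release factor that reads stop codons, was at -0.64 at 96 h and 0.67 at 2.5 µg/mL, and Eif2s3x, a subunit of eIF2, at -0.48 and 0.74. Of 20 tested partners of mitochondrial translation, 6, 11 and 9 were lower and 1, 2 and 3 higher at 24, 48 and 96 h, and 8 and 9 were higher and 1 and 2 lower at the 2 doses. Mtrf1, a mitochondrial release factor gene, stood at -0.81 at 96 h and 0.84 at 2.5 µg/mL, whereas Mtrf1l, a related release factor, stood at 0.78 and -0.74.

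Of the kinases that phosphorylate eIF2, Eif2ak2, which responds to double-stranded RNA, went from 2321 and 2318 reads at the start to 2910 and 3010 after 96 h (0.35, SE 0.06), and in the rescue from 2519 and 2536 to 1280 and 1218 at 2.5 µg/mL (-1.02, SE 0.07). Eif2ak2 thus moved opposite to the cytosolic synthetases in both series, without overlap between the groups. Of all genes, 32.4% were higher at 96 h and 32% lower at 2.5 µg/mL. It was picked from a list of 6 genes for eIF2 kinases and a phosphatase, and the others are not described here.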
